A study of Arabidopsis thaliana with 6 samples.

Results

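The DOF family was described here from the 36 rows that carry the TF family label C2C2(Zn) DOF, out of 1880 rows of TF genes measured by quantitative RT-PCR. DOF proteins (DNA binding with one finger) are plant-specific TFs. They hold a single zinc finger of the C2C2 type that binds DNA at sites with an AAAG core. Members act as activators or repressors in flowering time, phytochrome signalling, seed germination, vascular development, cell division and guard cell maturation. The members were chosen by the label alone, without their values.

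Transcripts were measured in immature zygotic embryos (IZEs) of Arabidopsis, taken 10 to 12 days after pollination. They were used as freshly isolated explants (0 d) or after 5 d and 10 d on E5 medium with 5 µM 2,4-D, a synthetic auxin that induces somatic embryogenesis (SE). The mutant tanmei (tan1-2), which carries a defect in the WD repeat protein TAN and forms no somatic embryos in culture, was set against the embryogenic accession Col-0. Both genotypes were sampled at the same 3 times, which gave 6 groups, and both received the same medium. The label of tanmei explants at 0 d calls them competent for the embryogenic transition in one field and non-embryogenic in another. Each group has 1 value per row, the mean Ct (threshold cycle) over 3 replicates. The spread between replicates is not in the values used here, so no difference was tested and no error can be set beside a value. A whole explant or culture was extracted, so fewer cells of a type and less transcript per cell cannot be told apart.

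A low Ct means much transcript, and a difference of 1 cycle is taken as a 2-fold difference. Each Ct was subtracted from the median Ct of its block in the same group, with an empty Ct set to 40. The deposited rows form 5 blocks of equal length. The result is called the level, on the log2 scale, and 0 is the middle of the block. A change is the difference between 2 levels of the same row. Levels of different rows depend also on their primer pairs, and their order is therefore only approximate. A row was called higher or lower when the change reached 2-fold, that is 1 on the log2 scale, and no statistical meaning is attached to a call.

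The codes of single rows are not settled. The published gene list holds 22 DOF genes with levels. The profile of each was searched for among the rows by its levels in the 6 groups. An offset for each group and block related the scales, so height counted as well as shape. A profile was linked when it lay within 0.5 cycles (root mean square) of a row and the next best row was worse by at least 0.25. For 18 of the 22 a row was linked, at a median distance of 0.162 cycles, and 0 of the 18 linked rows carried the same code. Of the linked rows 10 were labelled DOF and 8 were labelled GATA, another C2C2 family. Of 20 DOF genes with a Ct in every group under their own code, 0 lay within 1 cycle of that row, and the median distance was 2.88 cycles. The linked rows lay 54 to 80 places further down the block than the rows of the same code. Whether the matrix or the list has the correct codes could not be told from these tables.

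**Figure D1:**
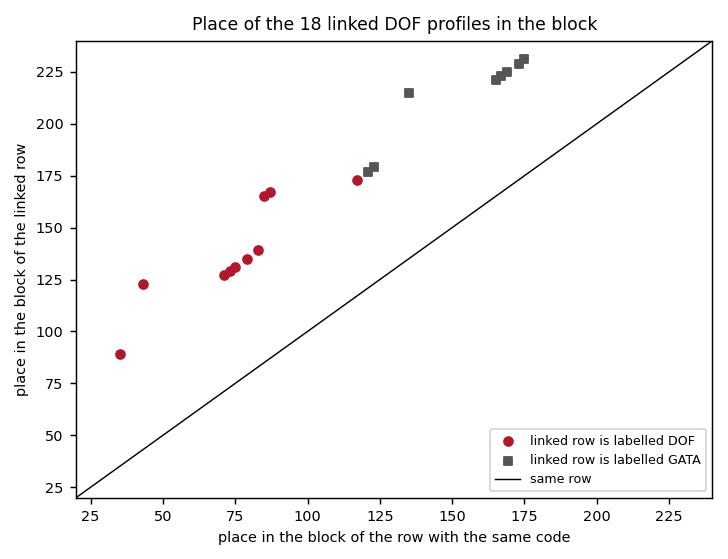
Place in the block of the row that carries the code (horizontal axis) and of the row to which the profile of that gene was linked (vertical axis), for 18 DOF genes. All 18 points lie above the line of equal places, by 54 to 80 places, and 8 of them fall on rows labelled GATA.

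The shifted stretch was taken as all C2C2 rows from the first to the last row to which a DOF profile was linked. It divides the 36 rows labelled DOF into 20 rows that lie inside the shifted stretch and 16 that lie ahead of it. The 20 inside rows are DOF rows by their codes, and 10 of them are DOF rows by their linked profiles too, although as another member. The others inside have no link of their own and lie between linked rows. For the 16 rows ahead of the stretch, the label DOF rests on the deposited codes alone. Of these 16 rows, 2 were linked to CO-like genes of the published list. The stretch itself has 36 rows, of which 16 are labelled GATA. Below, a row is named by its deposited code and its RefSeq symbol, a role is that of the code, and a linked code is given where there is one. A row without a linked code is not thereby settled, since the published profile of its code can be linked to another row. Among such rows are AT1G69570, AT2G46590, AT1G21340, AT3G21270 and AT3G45610. Tissue markers were not checked, because their codes could be displaced in the same way.

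Most rows of the family were detected in the explants and in the cultures, as were most of all rows. All 36 rows lie in the second of the 5 blocks, and 33 of them had a Ct in every group, compared with 1615 of all 1880 rows. In 30 rows the Ct was under 35 in every group, and in 4 rows it was under 35 in no group. How many of all rows did so was not counted. Within single groups, 30 to 32 of the 36 rows had a Ct under 35, where 1536 to 1633 of all 1880 rows had one. The median level of the 36 rows in tanmei was 0.24 at 0 d, 0.37 at 5 d and 0.61 at 10 d. In Col-0 it was 0.06 at 0 d, 0.41 at 5 d and 0.67 at 10 d. The middle of the family thus lay within 1 cycle of the block median in every group.

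The members were spread widely around that middle. The highest level was that of the row deposited as AT2G34140. Its Ct in tanmei was 18.4 at 0 d, 23.8 at 5 d and 23.8 at 10 d, and in Col-0 it was 19.4, 23.3 and 23.0 at the same times. The profile of this row was linked to AT5G24930, a CO-like gene, so that the most abundant row of the family is one whose label is in doubt. Next in mean level came the rows deposited as AT3G21270 (DOF2) and AT5G62940 (HCA2, which promotes cambial activity). The row of HCA2 had a level between 2.78 and 3.02 in tanmei and between 2.16 and 3.57 in Col-0. The published profile of AT3G50410 (OBP1) lay 0.044 cycles from this row. It was not linked, because the next best row was also near, at 0.221 cycles. From the row deposited as AT3G50410 that profile lay 12.8 cycles away.

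At the low end lay the rows deposited as AT1G26790, AT3G50410 (OBP1, a regulator of the cell cycle), AT1G47655 and AT3G61850 (DAG1, a repressor of seed germination). None of these 4 rows had a Ct under 35 in any group. The row of OBP1 had Ct values of 35.4, 37.9 and 37.8 in tanmei and of 36.3, 38.2 and 37.1 in Col-0 at 0, 5 and 10 d. At such late cycles few template molecules are counted, and differences of a cycle are poorly determined. As given above, the published profile of OBP1 lay nearest to the row of HCA2 and far from the row deposited as OBP1. An empty Ct was found in 3 rows, namely those deposited as AT1G29160 in tanmei at 10 d, AT1G47655 in tanmei at 0 d, and AT3G61850 in tanmei at 0 d and in Col-0 at 10 d.

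**Figure D2:**
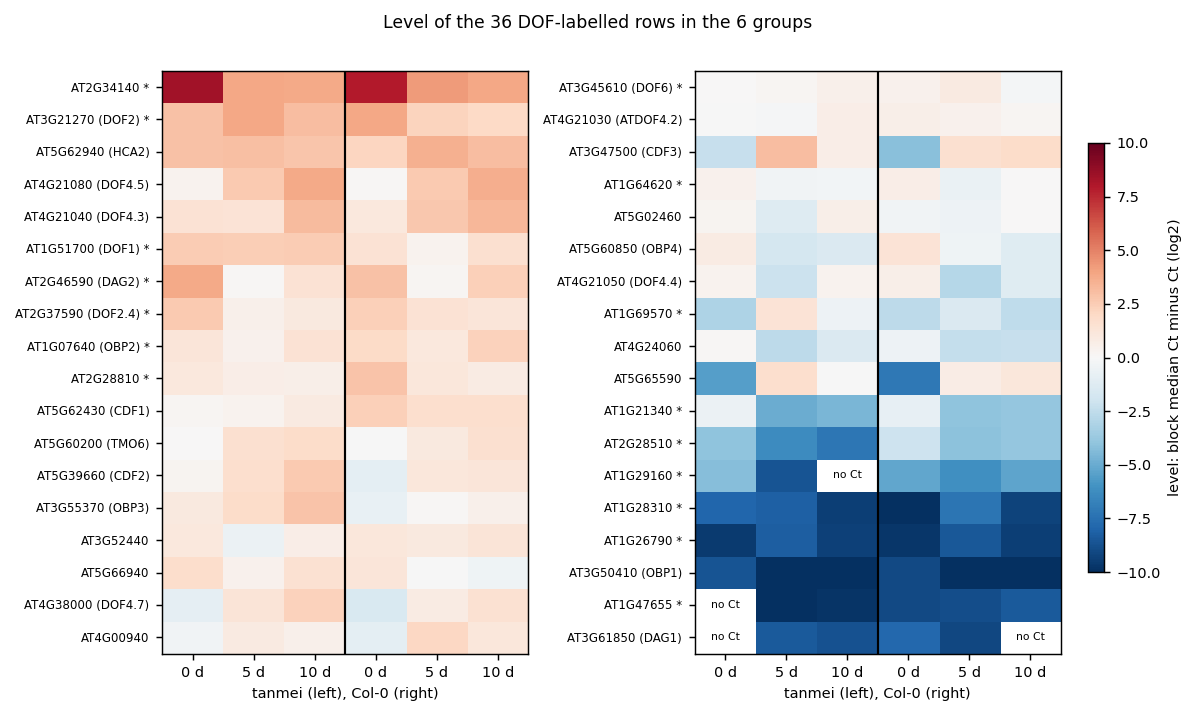
Level (block median Ct minus Ct, log2 scale) of each of the 36 rows labelled DOF, in tanmei and Col-0 at 0, 5 and 10 d, with red above and blue below the block median and the colour scale ending at −10 and 10. Rows run from the highest to the lowest mean level over 2 panels, an asterisk marks the 16 rows ahead of the shifted stretch, and white fields mark groups with no Ct. The row AT2G34140 stands above the rest at 0 d in both genotypes.

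Culture changed the family in both directions. In tanmei at 5 d, 11 of 36 rows were higher than at 0 d and 13 were lower. Over all rows tested, 28.7% were higher and 39.4% lower in that comparison. In Col-0 at 5 d, 11 rows were higher and 14 were lower, against 28.9% higher and 38% lower among all rows. At 10 d, 11 rows of tanmei were higher and 10 lower than at 0 d, and the shares of all rows were 31.1% and 37.4%. In Col-0 at 10 d, 9 rows were higher and 12 lower, and the shares of all rows were 29% and 41.1%. Few rows moved far. In tanmei 4 rows were at least 10-fold higher and 4 at least 10-fold lower at 5 d, where 11.6% and 11.1% of all rows were, and at 10 d 4 were higher and 3 lower, where 13.8% and 12.4% were. In Col-0 at 5 d 2 rows were higher by this measure and 2 lower, where 11.1% and 10.1% of all rows were, and at 10 d 3 were higher and 2 lower, where 12.8% and 11.2% were. These counts are near or below the background, and nothing particular to the family follows from them.

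The median change of the family was small. In tanmei it was −0.08 at 5 d and 0.17 at 10 d against 0 d, where the medians of all rows were −0.44 and −0.21. In Col-0 it was −0.42 at 5 d and 0.04 at 10 d, where the medians of all rows were −0.37 and −0.37. On the raw Ct, with no centring, the split of calls moved to 7 higher and 17 lower in tanmei at 5 d, where 25.4% and 49.0% of all rows were called. It moved to 9 and 13 in tanmei at 10 d, where the shares of all rows were 26.9% and 46.4%, and to 12 and 10 in Col-0 at 10 d, where they were 43.1% and 21.9%. Centred on the whole column, Col-0 at 5 d had 8 rows higher and 18 lower, where the shares of all rows were 31.3% and 35.9%. The median Ct of the block itself was later at 5 d than at 0 d by 0.83 cycles in tanmei and by 0.21 in Col-0. At 10 d it was later by 0.76 cycles than at 0 d in tanmei, whereas in Col-0 the difference was −0.42.

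Between 5 d and 10 d fewer rows changed. In tanmei 10 rows were higher at 10 d than at 5 d and 6 were lower, where 20% and 15.6% of all rows were called. In Col-0 5 rows were higher and 4 lower, where 17.4% and 18.1% of all rows were called. With the block median taken over rows with a Ct in all groups, tanmei had 7 rows higher and 7 lower, where 19.7% and 15.7% of all rows were called. In Col-0 the split was 6 higher and 2 lower when centred on the whole column, where the shares of all rows were 19.9% and 16.0%. On the raw Ct it was 15 and 2, where they were 29.1% and 9.53%.

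**Figure D3:**
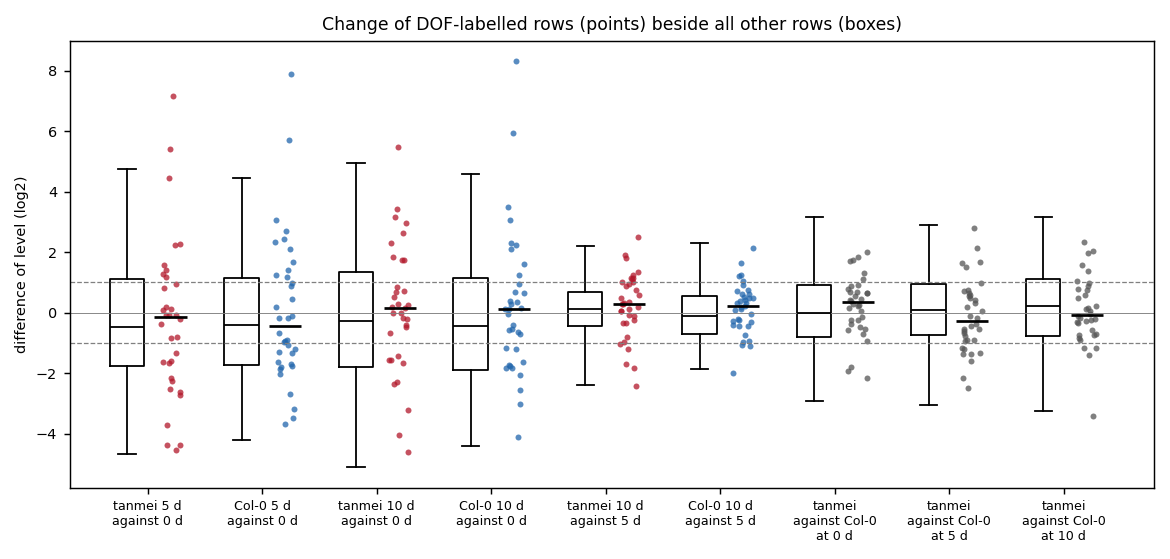
Difference of level (log2) of single rows labelled DOF with a Ct in both groups (points: red for tanmei, blue for Col-0, grey for tanmei against Col-0) and of all other rows (boxes: quartiles and median, whiskers at the 5th and 95th percentile), in 9 comparisons. Black bars are medians of the DOF points and dashed lines mark 2-fold. The points lie on both sides of 0 in each comparison, and the highest point, AT5G65590 in Col-0 at 10 d, lies at 8.32.

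The 20 rows inside the shifted stretch and the 16 rows ahead of it were counted apart. Of the inside rows, 9 were higher and 3 lower in tanmei at 10 d than at 0 d, and 9 were higher and 6 lower in Col-0. Of the rows ahead of the stretch, 2 were higher and 7 lower in tanmei at 10 d, and 0 were higher and 6 lower in Col-0. Among all rows 31.1% were higher and 37.4% lower in tanmei, and 29% and 41.1% in Col-0. At 5 d the inside rows had 8 higher and 7 lower in tanmei, and 8 and 6 in Col-0. The rows ahead of the stretch had 3 higher and 6 lower in tanmei at 5 d, and 3 and 8 in Col-0. Among all rows at 5 d, 28.7% were higher and 39.4% lower in tanmei, and 28.9% and 38% in Col-0. The difference between the inside rows and the rows ahead of the stretch was not tested. The stretch is bounded by genes that the paper selected for a change in Col-0 culture. The counts of the inside rows, of the rows ahead and of the whole stretch are therefore not independent of that selection. When the whole shifted stretch took the place of the label, 15 of its 36 rows were higher and 9 lower in tanmei at 10 d, and 15 were higher and 13 lower in Col-0.

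The largest rise was that of the row deposited as AT5G65590 (SCAP1, required for the maturation of stomatal guard cells), and the published list places at this row the profile of AT3G52440. Its Ct in tanmei was 32.3 at 0 d, 26.0 at 5 d and 27.6 at 10 d. In Col-0 it was 34.5 at 0 d, 26.8 at 5 d and 25.7 at 10 d. The row was thus late in explants of both genotypes and within 2 cycles of the block median in all cultures. The change against 0 d was 7.16 at 5 d and 5.47 at 10 d in tanmei, and 7.89 and 8.32 in Col-0. Between 5 d and 10 d the level fell by 1.69 in tanmei, whereas in Col-0 it changed by 0.43. The paper lists AT5G65590 as lower in Col-0 at 5 d and steady in tanmei, whereas this row rose in both.

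A similar course was taken by the row AT3G47500 (CDF3, a cycling DOF factor), which was linked to AT1G21340. Its Ct in tanmei was 29.1 at 0 d, 24.6 at 5 d and 26.9 at 10 d, and in Col-0 it was 31.4, 25.9 and 25.1 at those times. The change against 0 d was 5.40 at 5 d and 2.97 at 10 d in tanmei, and 5.72 and 5.95 in Col-0. This row also fell in tanmei between 5 d and 10 d, by 2.43 on the log2 scale, where Col-0 changed by 0.22. At 10 d both rows had a lower level in tanmei than in Col-0, by −1.15 each, although at 0 d they had been higher in tanmei, by 1.70 for AT5G65590 and by 1.83 for AT3G47500.

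In other rows the change was larger at 10 d than at 5 d and was alike in size in the genotypes at that time. The row deposited as AT4G21080 (DOF4.5, linked to AT2G28510) had Ct values of 26.5, 25.0 and 23.8 in tanmei at 0, 5 and 10 d, and of 27.2, 24.9 and 23.2 in Col-0. It was higher at 10 d than at 0 d by 3.44 in tanmei and by 3.50 in Col-0. A like course was taken by the row AT4G38000 (DOF4.7, known from floral organ abscission, and linked to AT2G34140), with Ct values of 27.7, 26.3 and 25.3 in tanmei, and of 28.9, 26.7 and 25.4 in Col-0. Its change at 10 d was 3.17 in tanmei and 3.05 in Col-0. The paper lists AT4G38000 as lower in Col-0 at 5 d, where this row was higher by 2.34. The row deposited as AT5G39660 had Ct values of 26.5, 26.0 and 25.0 in tanmei and of 28.3, 26.4 and 25.7 in Col-0. The change at 5 d was 1.41 in tanmei and 2.12 in Col-0. The paper lists AT5G39660 as lower in Col-0 at 5 d and as steady in tanmei, whereas this row rose in both. AT5G39660 is CDF2, called DOF5.2 in the study, but this row was linked to AT2G46590, and its changes of 2.29 in tanmei and 2.23 in Col-0 at 10 d may not be those of CDF2.

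A larger rise in Col-0 at 5 d was seen in the row AT4G00940 (ITD1, an intercellular trafficking DOF protein, linked to AT1G47655). Its Ct was 27.1, 26.8 and 27.1 in tanmei at 0, 5 and 10 d, and 28.3, 25.5 and 25.8 in Col-0. The change at 5 d was 1.19 in tanmei and 3.05 in Col-0. The paper lists AT4G00940 as higher in Col-0 at 5 d, the direction of this row, and as steady in tanmei. The published profile of AT4G00940 was, however, linked to the row AT1G08010, labelled GATA, so these directions belong to different profiles. For the row deposited as AT4G00940, the call in tanmei is lost on the raw Ct, where the change was 0.35. In the row deposited as AT1G69570 the order was the opposite. Its Ct was 29.9, 26.3 and 28.1 in tanmei, and 29.9, 29.0 and 29.4 in Col-0, so that both genotypes began at the same cycle and only the cultures of tanmei moved far. The change at 5 d was 4.45 in tanmei and 1.18 in Col-0, and at 10 d it was 2.63 in tanmei and 0.13 in Col-0. The published profile of AT1G69570 was linked to the row AT4G21050 instead, which fell at 5 d in both genotypes.

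**Figure D4:**
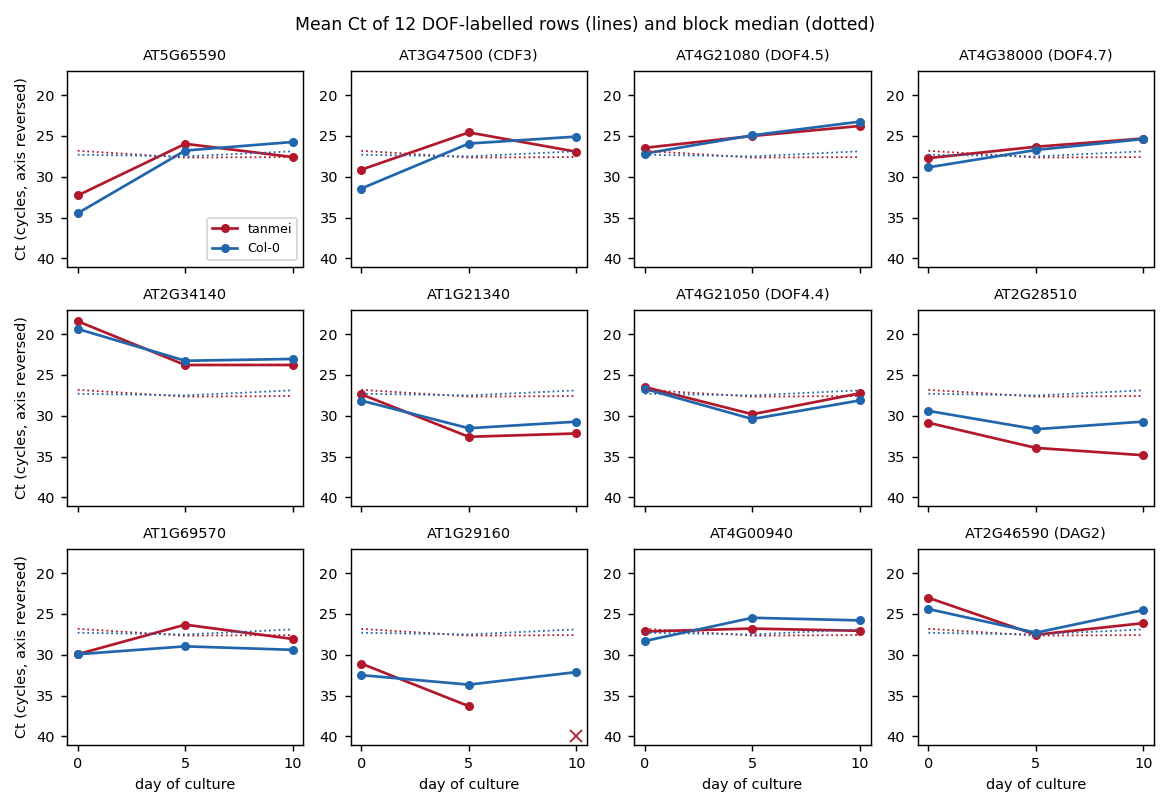
Mean Ct (cycles, reversed axis, so that more transcript lies higher) of 12 rows labelled DOF over days 0, 5 and 10 of culture, for tanmei (red) and Col-0 (blue), with the block median of each genotype as dotted lines and a cross at 40 for a group with no Ct. The first 4 rows rise in both genotypes, the next 4 lie below their 0 d level at 5 d, and AT1G69570 rises by 4.45 in tanmei at 5 d and by 1.18 in Col-0.

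The falls were led by the row deposited as AT2G34140, whose Ct values are given above. Its level was lower than at 0 d by −4.53 at 5 d and −4.59 at 10 d in tanmei, and by −3.69 and −4.09 in Col-0. Even so it kept a level between 3.81 and 4.25 in the cultures. At 10 d the next largest fall among the named rows was that of AT1G21340, with Ct values of 27.4, 32.6 and 32.2 in tanmei at 0, 5 and 10 d, and of 28.1, 31.5 and 30.7 in Col-0. It fell by 4.38 at 5 d and by 4.04 at 10 d in tanmei, and by 3.18 at 5 d in Col-0. Both rows were lower in all 4 cultures than in the explants of their genotype. Both lie ahead of the shifted stretch.

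Some rows fell at 5 d and were nearer to their 0 d level by 10 d. The row deposited as AT4G21050 (DOF4.4, linked to AT1G69570) had Ct values of 26.5, 29.8 and 27.3 in tanmei, and of 26.7, 30.4 and 28.1 in Col-0. It was lower at 5 d by −2.51 in tanmei and −3.49 in Col-0, and at 10 d its change was −0.01 in tanmei and −1.83 in Col-0. In the same way, the row AT2G46590 (DAG2, which promotes germination) had Ct values of 23.0, 27.6 and 26.1 in tanmei, and of 24.4, 27.3 and 24.5 in Col-0. Its change at 5 d was −3.70 in tanmei and −2.69 in Col-0, and at 10 d it was −2.34 in tanmei and −0.54 in Col-0.

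The row AT5G60850 (OBP4, a regulator of the cell cycle, linked to AT3G45610) was low at both times. Its Ct values were 26.0, 29.4 and 29.0 in tanmei, and 25.9, 27.9 and 28.1 in Col-0. It fell by 2.60 and 2.30 in tanmei at 5 d and 10 d, and by 1.80 and 2.55 in Col-0. No Ct was left in tanmei at 10 d for the row AT1G29160. In tanmei its Ct was 31.1 at 0 d and 36.3 at 5 d, whereas in Col-0 it was 32.5, 33.7 and 32.1 at 0, 5 and 10 d. The change at 5 d was −4.38 in tanmei and −0.96 in Col-0. In Col-0 it was −1.56 when centred on the whole column and −1.17 on the raw Ct, both past 2-fold.

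Rows that were called in both genotypes moved alike, with 1 exception. At 5 d, 8 rows were higher in both genotypes and 9 were lower in both, where 20% and 27.7% of all rows were. At 10 d, 8 were higher in both and 7 lower in both, where 20.9% and 27.4% of all rows were. A single row, that of DAG1, was called in opposite directions, where 5.28% of all rows were at 5 d and 5.8% at 10 d. Its values rest on Ct values above 35 and on empty ones. Across the rows with a Ct in all 4 groups, the changes of tanmei and of Col-0 at 5 d were correlated, with r (Pearson) at 0.87 and rho (Spearman) at 0.82 (n = 34 rows). At 10 d r was 0.85 and rho 0.79 (n = 33 rows). Without AT5G65590 and AT3G47500, r was 0.77 at 5 d and 0.82 at 10 d. Over all rows r was 0.72 at 5 d and 0.66 at 10 d. These correlations run across genes, which share the RNA of each group and the block, and they are given as a description.

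**Figure D5:**
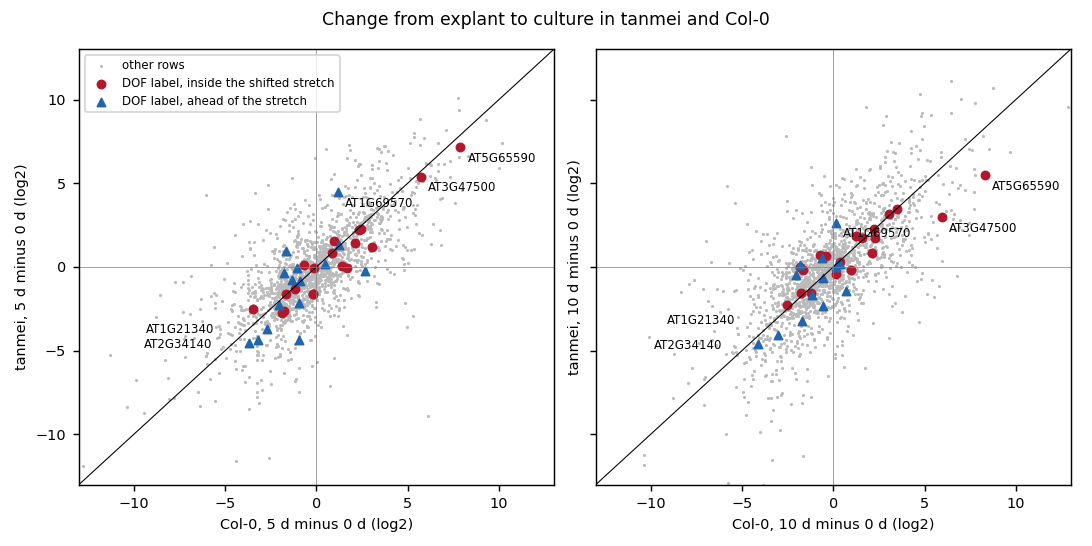
Change against 0 d (log2) in tanmei (vertical axis) and in Col-0 (horizontal axis) at 5 d (left) and 10 d (right), for rows labelled DOF inside the shifted stretch (red circles), those ahead of it (blue triangles) and all other rows (grey). The DOF rows run along the line of equal change, with AT1G69570 above it and, at 10 d, AT5G65590 and AT3G47500 below it.

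The size of the response differed by at least 2-fold between the genotypes in 16 of 36 rows at 5 d and in 19 at 10 d. Among all rows this share was 51.6% at 5 d and 57.1% at 10 d. At 5 d the response of tanmei was above that of Col-0 in 6 rows and below it in 10, where 24.5% and 27.1% of all rows did so. At 10 d it was above in 10 rows and below in 9, where the shares of all rows were 29.8% and 27.2%. The family thus lay close to the background in this respect too, and with 1 mean per group no interaction could be tested.

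A direct comparison of tanmei with Col-0 at the same time gave fewer calls. At 0 d, 6 rows were higher in tanmei and 5 were lower, where 24.6% of all rows were higher and 22% lower. At 5 d, 5 rows were higher and 8 lower, where the shares of all rows were 24.1% and 22.1%. At 10 d, 7 rows were higher and 5 lower, where the shares of all rows were 28.7% and 22.4%. The medians were 0.28, −0.28 and −0.07 at 0, 5 and 10 d, where those of all rows were 0.02, 0.08 and 0.21. Both the share and the direction depended on the centring. On the raw Ct, 14 rows were higher and 5 lower at 0 d, where 44.5% and 11.9% of all rows were called. At 10 d 4 exceeded Col-0 while 13 lay below it, where the shares of all rows were 15.5% and 37.6%. Centred on the whole column, 4 were higher and 8 lower at 0 d, where the shares were 23.4% and 24.9%. With the block median over rows with a Ct in all groups, 8 were higher and 6 lower at 5 d, where they were 24.5% and 21.6%.

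One row was higher in tanmei at all 3 times, that deposited as AT3G55370 (OBP3, named for its interaction with an OBF protein). Its Ct was 25.8, 25.8 and 24.7 in tanmei at 0, 5 and 10 d, and 28.0, 27.4 and 26.4 in Col-0. The difference was 1.73 at 0 d, 1.69 at 5 d and 2.33 at 10 d. The row deposited as AT2G28510 was lower in tanmei at all 3 times. Its Ct was 30.9, 33.9 and 34.8 in tanmei, and 29.4, 31.6 and 30.7 in Col-0. The difference was −1.94 at 0 d, −2.15 at 5 d and −3.42 at 10 d. This row lies ahead of the shifted stretch, where the label DOF rests on the deposited codes alone. The published profile of AT2G28510 was linked to the row AT4G21080 instead. There the genotypes differed by 0.22, 0.06 and 0.17 at 0, 5 and 10 d. For AT3G55370 the levels of tanmei, all at or above 1.002, did not overlap those of Col-0, from −0.73 to 0.52. For AT2G28510 the levels ran from −7.25 to −4.04 in tanmei and from −4.14 to −2.10 in Col-0, so that they overlapped slightly across times. The row AT1G47655 was also called lower in tanmei at all 3 times, but with no Ct at 0 d in tanmei and with Ct values above 35 elsewhere. The 3 times are different stages with 1 mean each and not replicates. How many of all rows were called in the same direction at all 3 times was not counted. How many had levels without overlap between the genotypes was not counted either. Whether the family has more or fewer such rows than the background was therefore not tested.

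Other rows differed at 1 or 2 of the times. That of AT1G69570 was higher in tanmei cultures than in Col-0 cultures by 2.80 at 5 d and 2.03 at 10 d, and at 0 d the difference was −0.47. At 5 d the row AT1G51700 (DOF1) was higher in tanmei by 2.13, with a Ct of 25.2 in tanmei and 27.1 in Col-0. Its difference of 1.12 at 0 d was 0.65 when centred on the whole column. At 10 d the row AT5G66940 was higher in tanmei by 1.99, with a Ct of 26.0 in tanmei and 27.3 in Col-0. In explants the row AT5G62430 (CDF1, a repressor of the flowering gene CONSTANS) was lower in tanmei, with a difference of −2.16 and a Ct of 26.6 in tanmei and 25.0 in Col-0. Its difference was −1.36 at 5 d and −0.74 at 10 d.

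The roles of the codes were followed with hand-written lists, and every count below holds only if the codes do. The cycling DOF factors delay flowering by repressing CONSTANS. In RefSeq 3 codes bear that name, CDF1, CDF2 and CDF3, and 4 further codes were placed in the list by hand. Of the 7 rows, 4 were higher and 2 lower in tanmei at 5 d, and 4 were higher and 1 lower in Col-0. The shares of all rows were 28.7% and 39.4% in tanmei and 28.9% and 38% in Col-0. Of the 4 rises in Col-0, that of AT1G26790 (1.25) was seen at Ct values above 35, and that of AT1G69570 (1.18) was 0.58 when centred on the whole column. At 10 d, 3 were higher and 2 lower in tanmei, where 31.1% and 37.4% of all rows were. In Col-0 2 were higher and 1 lower at 10 d, where 29% and 41.1% of all rows were. The row of CDF1 itself changed by 0.13 at 5 d in tanmei and by −0.67 in Col-0, where the value was −1.28 when centred on the whole column.

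Of 6 rows of DOF codes active in the phloem and the vascular cambium, 1 was higher and 2 lower in tanmei at 5 d. In Col-0 1 was higher and 0 lower at that time. Among all rows, 28.7% were higher and 39.4% lower in tanmei at 5 d, and 28.9% and 38% in Col-0. The row of TMO6, a target of the auxin response factor MONOPTEROS, had Ct values of 26.8, 26.0 and 25.8 in tanmei, and of 27.3, 26.5 and 25.3 in Col-0, and it was linked to AT3G21270. Its change at 10 d was 1.76 in tanmei and 1.60 in Col-0. The row of HCA2 changed by 0.08 at 5 d in tanmei and by 1.41 in Col-0. Between the genotypes, 22% to 28.7% of all rows were called in each direction at each time. Of the 6 phloem and cambium rows, 0 reached 2-fold at any time against the block median. Under other centrings some did, since the row of OBP2 had a difference of −1.15 at 0 d when centred on the whole column and of −1.55 at 10 d on the raw Ct, and AT5G02460 had 1.14 at 0 d on the raw Ct.

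Of the 4 OBF-binding proteins, 0 rows were higher and 2 lower at 5 d in each genotype, and 1 was higher and 2 lower at 10 d in each. The lower rows were those of OBP1, at Ct values above 35, and OBP4, while that of OBP3 was higher at 10 d by 1.85 in tanmei and by 1.25 in Col-0. The change of OBP3 in Col-0 was 0.82 when centred on the whole column, which is below 2-fold. Among all rows at 5 d, 28.7% were higher and 39.4% lower in tanmei, and 28.9% and 38% in Col-0. At 10 d these shares were 31.1% and 37.4% in tanmei, and 29% and 41.1% in Col-0. Of the 4 codes DOF4.2 to DOF4.5, 2 rows were higher and 0 lower at 10 d in tanmei. In Col-0 2 were higher and 1 lower at 10 d. The 10 d shares of all rows given above apply here too. The row of DOF4.3 (linked to AT1G64620) had Ct values of 25.4, 26.3 and 24.4 in tanmei, and of 26.2, 24.8 and 23.5 in Col-0. Its change of 1.73 in tanmei at 10 d was 0.96 on the raw Ct, which is below 2-fold.

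Of the 3 germination codes DAG1, DAG2 and DOF6, 1 row was higher and 1 lower in tanmei at 5 d. In Col-0 0 were higher and 2 lower at that time. Among all rows, 28.7% were higher and 39.4% lower in tanmei at 5 d, and 28.9% and 38% in Col-0. The row of DOF6 had Ct values of 26.8, 27.4 and 27.0 in tanmei and of 26.9, 26.6 and 27.1 in Col-0. It was within 2-fold of its 0 d level in all cultures, except in Col-0 at 10 d when centred on the whole column (−1.07). The call of a rise in tanmei belongs to DAG1, which had no Ct at 0 d.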

How the data were processed

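Total RNA was reverse transcribed by the authors and amplified with SYBR Green, with 1 primer pair for each gene. Ct values (PCR threshold cycles) were deposited as means that the authors took over 3 replicates, with no reference gene subtracted. An empty field means that no replicate gave a Ct. A listed Ct of exactly 40 was treated as empty (94 fields, 0 in DOF rows). The decimals of 134 of the 212 DOF means fit an average over 3 values and those of 3 an average over 2, whereas 75 allow either. A second deposited table holds the authors' own fold changes and was not used. Sequencing depth does not apply to PCR, and how precise a mean is cannot be given.

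Levels were computed with Python 3.11.15 and pandas 2.3.3 as block median Ct minus Ct over 5 blocks of 376 rows. A row needed a Ct in at least 1 of the groups compared. Named rows are the 3 largest rises and the 3 largest falls in each comparison among rows with a Ct in both groups and a Ct under 35 in at least 1, plus the role lists. The members were taken by the label alone, but earlier results of these data were known when they and the lists were chosen. All 36 codes were found in RefSeq (TAIR10.1). The counting was tested on simulated data. Alternatives were other centrings, stricter detection and the shifted stretch.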

Additional observations from a re-analysis of the deposited data

Results flagged for a closer look

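The row deposited as AT3G61850 (DAG1) moved in opposite directions in the genotypes. In tanmei it had no Ct at 0 d and a Ct of 36.03 at 5 d and 36.3 at 10 d. In Col-0 its Ct was 35.1 at 0 d and 36.6 at 5 d, and there was none at 10 d. With an empty Ct set to 40, the change in tanmei minus that in Col-0 was 6.10 at 5 d and 9.75 at 10 d on the log2 scale. The difference was not tested, and its size is set largely by the value given to empty fields.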

How the results depend on the processing

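Of 20 counts (higher and lower calls in 9 comparisons and the differing responses at 5 d and 10 d), 18 stayed within 1.5 times when centred on the whole column, 14 on the raw Ct, 19 with the block median over rows with a Ct in all groups, 19 with only rows that had a Ct in both groups, 18 with only rows that had a Ct under 35, and 18 in the shifted stretch. On the raw Ct, 7 rows were higher in tanmei at 5 d against 0 d, 15 were higher and 2 lower in Col-0 at 10 d against 5 d, 14 were higher in tanmei than in Col-0 at 0 d, and at 10 d 4 were above Col-0 and 13 below it. Centred on the whole column, 2 were lower in Col-0 at 10 d against 5 d, and 8 were lower in tanmei than in Col-0 at 0 d. With the block median over rows with a Ct in all groups, 8 were higher in tanmei than in Col-0 at 5 d. With a Ct in both groups, 3 were lower in tanmei than in Col-0 at 0 d. With a Ct under 35, 3 were lower there and 3 were lower in tanmei at 10 d against 5 d. In the shifted stretch, an alternative chosen after seeing the data, 15 were higher in Col-0 at 10 d against 0 d and 2 lower at 10 d against 5 d. The cause of these shifts was not tested. Among 107 calls of named rows, 94 kept 2-fold under every centring, 13 did not, and 0 changed direction. No paired analysis was possible because each group has 1 mean per row. No replicate could be left out for the same reason, and late Ct values limit the 4 lowest rows most.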
